A study of Rattus norvegicus with 4 samples.

Results

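Voltage-gated ion channels and potassium channels set when a neuron fires and how long each spike lasts. The transcripts of their subunits were measured in the frontal cortex of newborn rats. The group held every transcript with an NCBI Gene ID whose symbol begins as the sodium channel subunits (Scn, ending in a or b), the calcium channel subunits (Cacna, Cacnb, Cacng), the potassium channel subunits (Kcn) or the HCN pacemaker channels (Hcn) do, and it counted 129 genes of 14008 with such an ID. The choice used names only, not expression.

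Polyadenylated RNA of 4 libraries was analyzed, 1 for each combination of sex and prenatal treatment. All came from rats labelled Wistar, which the methods give as Wistar Furth, and postnatal day 1. The dams of the BPA libraries received 5000 µg of bisphenol A per kg of body weight by oral gavage every day from gestational day 1 to birth, and the dams of the control libraries received the vehicle alone. BPA is a synthetic compound found in polycarbonate and epoxy resins, and it can act on hormone receptors. The libraries are named by treatment and sex, as in BPA male, and no transgene or other agent was used in any of them. The methods give 6 litters and 3 pups for each sex under each treatment and do not state if their RNA was pooled. The p-values therefore measure only the spread between these libraries. In that spread a male library stands against a female one under the same treatment, so sex, animal and technical differences are mixed in it. Within a sex, 1 library stood against 1, with no replicate check.

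Values were deposited as FPKM, which is the number of fragments scaled to the length of the transcript and to the depth of the library. Because FPKM is per length, levels can be set side by side between genes. The depth estimated from the steps between low FPKM values was between 8952500 and 9257750 fragments per library, and the median FPKM lay between 5.91 and 6.52. Markers of cortical projection neurons were plentiful in all libraries, with a summed level between 599 and 646 FPKM over the 11 of 13 list genes found, although within the list Slc17a7 passed the test as lower with BPA and Neurod2 as higher. Markers of other tissue moved with treatment. Although the methods state that the meninges were taken off, the summed level of 15 meningeal genes was 518 FPKM in the control male and 665 FPKM in the control female library, against 236 in the BPA male and 160 in the BPA female library. All 14 of these genes that were tested lay lower in both sexes and 8 passed the test. The summed level of 16 striatal neuron genes ran the other way, from 281 and 286 FPKM in the control libraries to 351 and 361 FPKM in the BPA libraries, with 12 genes higher in both sexes and 2 past the test. Of 7 olfactory bulb genes found, 3 were tested, 2 of them lay lower in both sexes and 1, Cdhr1, passed, and the summed level of the list was 88.0 and 100.1 FPKM in the control male and female libraries and 56.6 and 55.4 FPKM in the BPA male and female libraries. Of 8 endothelial genes, 7 lay lower in both sexes and 0 passed. The part of these differences in any channel gene value was not tested. In RNA of whole tissue, fewer cells of a type and less RNA per cell cannot be told apart.

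A voltage-gated sodium or calcium channel is built around 1 large pore-forming subunit, and auxiliary subunits set its place in the membrane, its amount and its gating. Potassium channels assemble from smaller subunits and include voltage-gated (Kv), calcium-activated, inward rectifier and 2-pore-domain leak channels, which repolarize the cell and hold it at rest. In the developing cortex these channels appear while neurons are still migrating and making their first contacts, and the subunits in use change as the neurons mature.

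Of the 129 channel genes, 122 were listed in all 4 libraries and 96 had a mean of at least 1 FPKM, the minimum set for a test. In the control libraries, 33 had a mean of at least 10 FPKM and 5 had at least 50 FPKM. The most abundant were auxiliary subunits rather than pores. Cacng4, a TARP that carries AMPA receptors to the synapse, was at 80.0 and 82.1 FPKM in the control male and female libraries and at 86.7 and 86.1 FPKM in the BPA male and female libraries. Cacnb3, a cytoplasmic subunit that brings calcium channel pores to the membrane, was at 81.4 and 77.5 FPKM in the control libraries and at 88.4 and 86.6 FPKM in the BPA libraries. Scn3b, a sodium channel beta subunit, was between 59.5 and 63.1 FPKM, Cacna2d1 between 49.7 and 58.2 FPKM and Cacng7 between 47.2 and 55.9 FPKM. Among the pores, the sodium channel Scn2a was between 26.2 and 32.4 FPKM.

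**Figure D1:**
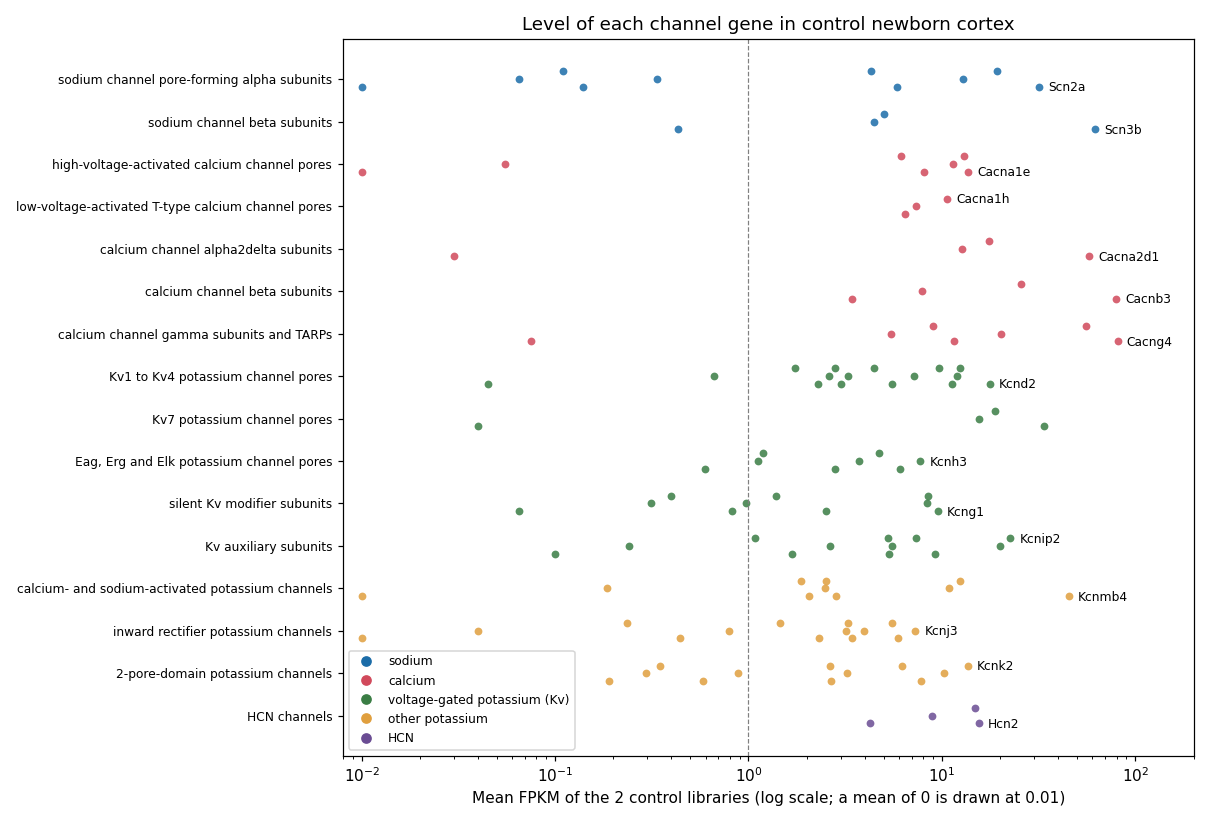
Mean FPKM of the control libraries (log axis) for each of the 129 channel genes, 1 point a gene, grouped in 16 families, with the most abundant gene of 15 families named and the minimum of 1 FPKM dashed. A gene listed in 1 sex is drawn at its value in the control library of that sex. Cacng4, Cacnb3, Scn3b, Cacna2d1 and Cacng7 stand above 50 FPKM, and every family has a member above 7 FPKM.

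Among the sodium channel pores, 3 genes accounted for most of the signal. Scn2a, the main pore of early axons, was at 31.2 and 32.4 FPKM in the control male and female libraries, Scn3a, a pore prominent before birth, was at 19.2 FPKM in each of them, and Scn8a, the pore of mature axon initial segments and nodes, was at 12.1 and 13.7 FPKM. Scn1a and Scn9a followed between 3.79 and 5.90 FPKM. The ranges of these 5 genes over the 4 libraries did not overlap. The pores of skeletal muscle and sensory neurons, Scn4a, Scn10a and Scn11a, and the sodium sensor Scn7a stayed at or below 0.21 FPKM.

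Scn2a and Scn3a are neighbours on chromosome 3 and are read away from each other, while Scn8a lies on chromosome 7. The 250 bases before the start site that RefSeq gives for each gene (assembly GRCr8, 1 start per gene, printed 5′ to 3′ on the strand of the gene) are shown because these 3 genes carry the sodium pore signal and their start regions differ, with CG dinucleotides in capitals.
Scn2a, chr3:70710706-70710955, plus strand: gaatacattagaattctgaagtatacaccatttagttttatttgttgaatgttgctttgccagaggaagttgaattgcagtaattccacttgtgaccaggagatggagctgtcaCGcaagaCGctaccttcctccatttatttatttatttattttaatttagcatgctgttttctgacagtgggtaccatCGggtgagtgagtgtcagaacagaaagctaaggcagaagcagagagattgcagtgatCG
Scn3a, chr3:70666199-70666448, minus strand: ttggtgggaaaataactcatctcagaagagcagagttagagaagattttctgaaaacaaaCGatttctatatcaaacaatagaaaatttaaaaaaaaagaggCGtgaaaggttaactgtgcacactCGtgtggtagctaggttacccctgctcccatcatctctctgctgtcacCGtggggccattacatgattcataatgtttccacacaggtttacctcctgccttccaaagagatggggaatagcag
Scn8a, chr7:133860977-133861226, plus strand: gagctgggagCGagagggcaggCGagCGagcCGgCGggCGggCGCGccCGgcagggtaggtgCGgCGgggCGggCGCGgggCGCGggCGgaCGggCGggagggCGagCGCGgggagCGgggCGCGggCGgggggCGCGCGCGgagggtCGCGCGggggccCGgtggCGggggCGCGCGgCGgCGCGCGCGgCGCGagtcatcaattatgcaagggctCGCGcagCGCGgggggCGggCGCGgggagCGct
The Scn2a and Scn3a windows hold 4 CG dinucleotides each at 39.6% and 41.6% G and C, and the Scn8a window holds 53 at 86.0%, against medians of 6 and 52.0% over the 27457 promoters of the table and of 15 and 59.2% over the 11338 of them that belong to transcripts measured here. Of the channel genes, 85 of 129 have an entry there, too few for a comparison of the whole group.

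Comparing BPA with control, with the male and female libraries as the 2 libraries of each treatment, 0 of the 96 channel genes passed limma's test at an adjusted p under 0.05, in either direction. Over all 13163 transcripts tested, 14 (0.106%) passed as higher and 60 (0.456%) as lower. The lowest adjusted p of a channel gene was 0.131, for Cacnb4. At an unadjusted p under 0.05, 1 channel gene was higher (1.04%, against 5.3% of all transcripts tested) and 9 were lower (9.38%, against 12%). The channel genes thus passed the unadjusted threshold no more often than other transcripts.

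In size the differences were small and mostly below 0. The median log2 ratio of BPA to control was -0.11 over the 96 channel genes, against -0.04 over all transcripts tested. It was -0.11 in males, against -0.04 over all transcripts tested, and -0.095 in females, against -0.043. After rescaling by size factors, the medians with the sexes combined were -0.071 for the channel genes and 0.009 for all transcripts tested. After quantile normalization they were -0.022 and 0.013. Of the 96 genes, 46 (47.9%) were lower in both sexes and 17 (17.7%) higher in both, against 41.7% and 26.1% of the 10632 tested transcripts with a Gene ID. Without the BPA male library the median with the sexes combined was -0.05 for the channel genes and -0.045 for all transcripts, whereas without the BPA female library it was -0.14 and -0.03. The median absolute log2 ratio of the channel genes was 0.20 in males and 0.14 in females, while the sexes differed by 0.12 under control and by 0.16 under BPA. Over tested transcripts with a Gene ID these values were 0.148, 0.15, 0.106 and 0.117. Their median control level was 13.2 FPKM, against 6.8 FPKM for the channel genes.

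Both BPA libraries lay below both control libraries for 35 channel genes (36.5%) and above them for 14 (14.6%). The same counts over all transcripts with a Gene ID were 33.4% below and 19.0% above, so the channel genes were near this background. Of the 49 channel genes that separated, 28.6% were higher. When FPKM was rescaled by size factors, 29 lay below and 19 above (39.6% higher), and over all transcripts with a Gene ID the share higher among those that separated went from 36.2% to 52.3%.

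**Figure D2:**
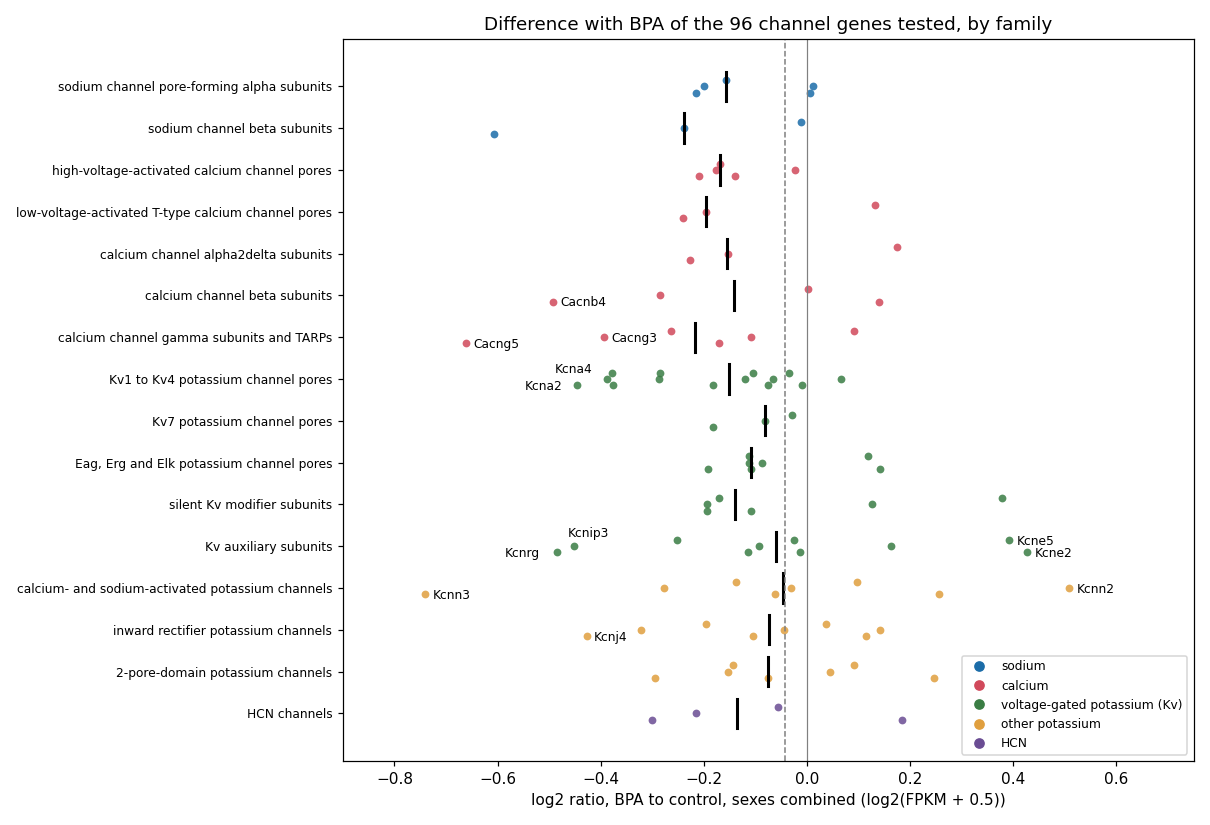
Log2 ratio of BPA to control with the sexes combined, for the 96 channel genes tested, 1 point a gene, with the median of each family as a black bar and the median of all 13163 transcripts tested (-0.04) as a dashed line. The medians of all 16 families lie below 0, between -0.24 and -0.05, and single genes reach from -0.74 (Kcnn3) to 0.51 (Kcnn2).

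Counting error alone was small enough to set some genes apart. The 95% counting interval of the ratio, from the estimated fragments, excluded 1 on the low side in both sexes for 14 channel genes (14.6%, against 10.9% of transcripts with a Gene ID) and on the high side for 1 (1.04%, against 5.29%). The gene on the high side was Cacnb3. Those on the low side were Cacnb4, the calcium channel pores Cacna1a, Cacna1b, Cacna1e and Cacna1i, Cacna2d1, the TARP Cacng8, Scn2a, Hcn3 and the potassium channel genes Kcnc1, Kcnd2, Kcnj6, Kcnk10 and Kcnn3. For Kcnc1 the upper limit in males was 1.00 after rounding. These intervals cover counting error only and favour abundant and long transcripts.

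In sodium channels, 5 of 10 pore genes and 3 of 4 beta subunit genes reached 1 FPKM, and none passed the test. Scn2a (Gene ID 24766) was at 31.2 and 32.4 FPKM in the control male and female libraries and at 26.2 and 29.2 FPKM in the BPA male and female libraries, which do not overlap the controls. The ratio was 0.838 in males (95% counting interval 0.792 to 0.887) and 0.901 in females (0.852 to 0.952), and the log2 ratio with the sexes combined was -0.20 ± 0.08 (SE, limma adjusted p = 0.276). Its neighbour Scn3a was at 18.4 FPKM in the BPA male and 20.5 FPKM in the BPA female library, on either side of the controls, and Scn8a was at 11.9 and 14.0 FPKM. Their log2 ratios were both 0.01. Scn1a, a pore of inhibitory neurons, and Scn9a were lower in both BPA libraries than in both controls, with log2 ratios of -0.21 and -0.16.

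The dominant beta subunit Scn3b had a log2 ratio of -0.01. Scn2b was at 4.52 and 5.50 FPKM in the control male and female libraries and at 5.22 and 3.28 FPKM in the BPA male and female libraries, so the BPA male library lay between the controls and the BPA female library below them.

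Calcium channel pores were measured at moderate levels. Among the high-voltage-activated pores, which open on strong depolarization and admit the calcium for transmitter release, Cacna1e had the highest control mean, at 12.02 and 15.3 FPKM in the control male and female libraries, followed by Cacna1b at 12.5 and 13.6 FPKM and Cacna1a at 10.5 and 12.3 FPKM. The ranges of these 3 overlapped over the libraries, while Cacna1c (7.30 to 8.81 FPKM) and Cacna1d (4.90 to 6.34 FPKM) lay below them and apart from each other. The skeletal muscle pore Cacna1s and the retinal pore Cacna1f were at or below 0.07 FPKM.

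Of the 5 high-voltage-activated pores tested, 4 were lower with BPA in both sexes and 0 higher in both, with log2 ratios from -0.21 (Cacna1a) to -0.02 (Cacna1c) and a lowest limma adjusted p of 0.412. Cacna1b was at 10.8 FPKM in the BPA male and 12.2 FPKM in the BPA female library, with ratios of 0.866 (0.793 to 0.944) and 0.895 (0.823 to 0.973). For Cacna1e the control female library was the highest of the 4, and the BPA female library, at 13.6 FPKM, lay above the control male library. The difference between the control libraries was thus larger than that between treatments.

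The T-type pores, which open near rest and support burst firing, did not move together. Cacna1h was at 10.7 and 10.6 FPKM in the control male and female libraries and at 10.5 and 13.0 FPKM in the BPA male and female libraries, a ratio of 0.989 (0.895 to 1.09) in males and 1.23 (1.11 to 1.35) in females. Cacna1g was at 7.02 and 7.69 FPKM in the control libraries and at 5.40 and 7.47 FPKM in the BPA libraries, a ratio of 0.770 (0.668 to 0.887) in males and 0.972 (0.854 to 1.11) in females. Each gene thus differed beyond counting error in 1 sex, Cacna1h in females and Cacna1g in males, and the difference between the sexes was not tested. Cacna1i was lower in both BPA libraries, with a log2 ratio of -0.24 (limma adjusted p = 0.356).

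The auxiliary subunits of calcium channels held the gene nearest to the threshold. Cacnb4 (Gene ID 58942), a beta subunit whose loss causes ataxia and seizures in mice, was at 7.85 and 7.87 FPKM in the control male and female libraries and at 5.57 and 5.31 FPKM in the BPA male and female libraries. The control libraries differed by less than the BPA libraries did, and both BPA libraries lay clearly below. The ratio was 0.710 (0.620 to 0.811) in males and 0.674 (0.588 to 0.773) in females, from between 354 and 538 fragments a library. The log2 ratio with the sexes combined was -0.49 ± 0.11 (SE, limma adjusted p = 0.131, range 0.0558 to 0.423 over the alternatives).

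The 4 beta subunit genes went different ways. Cacnb3 (Gene ID 25297), the most abundant of them, had ratios of 1.09 (1.02 to 1.16) in males and 1.12 (1.05 to 1.19) in females, a log2 ratio of 0.14 ± 0.06 (SE, limma adjusted p = 0.292). Cacnb1 was at 25.5 and 25.6 FPKM in the control male and female libraries and at 23.6 and 27.8 FPKM in the BPA male and female libraries, with a log2 ratio of 0.00. Cacnb2, the least abundant, had a log2 ratio of -0.29. Because Cacnb3 far exceeded the others, the summed level of the family was 118 and 114 FPKM in the control libraries and 120 and 122 FPKM in the BPA libraries.

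Of the alpha2delta subunits, extracellular proteins that raise the amount of calcium channel at the membrane, Cacna2d1 was at 57.1 and 58.2 FPKM in the control male and female libraries and at 49.7 and 53.8 FPKM in the BPA male and female libraries. Cacna2d3 ran the other way, at 18.0 and 16.9 FPKM in the control libraries and 19.7 and 19.8 FPKM in the BPA libraries. Neither set of BPA libraries overlapped its controls. The log2 ratios were -0.15 (limma adjusted p = 0.299) and 0.18 (adjusted p = 0.307), and Cacna2d2 followed Cacna2d1 with -0.23.

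The gamma family here is mostly TARPs, which act on AMPA receptors more than on calcium channels. Of the 6 genes tested, 5 lay lower in both BPA libraries than in both controls, and 1, Cacng4, lay higher, with a log2 ratio of 0.09, where 33.4% and 19.0% of all transcripts with a Gene ID did so. Cacng5 (Gene ID 140726) was at 5.06 and 5.82 FPKM in the control male and female libraries and at 3.82 and 2.75 FPKM in the BPA male and female libraries, a log2 ratio of -0.66 ± 0.19 (SE, limma adjusted p = 0.185). It rested on 19 to 40 fragments a library, and the interval of the male ratio (0.441 to 1.28) included 1. Cacng3 was at 8.03 and 9.94 FPKM in the control libraries and at 6.86 and 6.51 FPKM in the BPA libraries, a log2 ratio of -0.39 (adjusted p = 0.227). Cacng8 and Cacng7, neighbours in the genome, had log2 ratios of -0.26 and -0.17, and Cacng2, also called stargazin, had -0.11. Cacng4 and Cacng5 are also neighbours and lay on opposite sides of 0.

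Voltage-gated potassium channel pores of the Kv1 to Kv4 groups were led by the A-type pores Kcnd2 and Kcnd3, which delay firing after a depolarization. Of the 14 genes tested, 11 were lower with BPA in both sexes and 1 was higher in both, with log2 ratios from -0.45 (Kcna2) to 0.07. Kcnd2 (Gene ID 65180) was at 16.5 and 19.0 FPKM in the control male and female libraries and at 14.1 and 14.8 FPKM in the BPA male and female libraries, ratios of 0.857 (0.760 to 0.966) and 0.778 (0.692 to 0.873) and a log2 ratio of -0.28 ± 0.10 (SE, limma adjusted p = 0.230). Kcnd3 was at 11.95 and 12.9 FPKM in the control libraries and at 11.1 and 12.5 FPKM in the BPA libraries, where the groups overlap.

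The Kv1 pores Kcna2 and Kcna4 showed the largest differences of this group, on fewer fragments. Kcna2 was at 3.34 and 3.21 FPKM in the control male and female libraries and at 2.50 and 2.06 FPKM in the BPA male and female libraries, a log2 ratio of -0.45 (limma adjusted p = 0.300). Kcna4 was at 2.52 and 2.68 FPKM in the control libraries and at 2.36 and 1.46 FPKM in the BPA libraries, a log2 ratio of -0.39 (adjusted p = 0.468). For Kcna4 the BPA female library alone stood apart, with a ratio of 0.544 (0.388 to 0.756) against 0.939 (0.703 to 1.25) in males. In the tandem of Kcna5, Kcna1 and Kcna6, control means were 0.66, 1.74 and 11.3 FPKM, so direct neighbours differed widely in level.

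Kv7 pores showed a difference in the male pair. Kcnq3, a pore of the M channel, which limits repetitive firing, was at 15.9 FPKM in the control male and 12.1 FPKM in the BPA male library, a ratio of 0.759 (0.684 to 0.843), and at 15.2 and 15.4 FPKM in the female libraries, a ratio of 1.01 (0.917 to 1.12). The female interval included 1 and the male interval did not, and the difference between the sexes was not tested. Kcnq5 had ratios of 0.895 (0.811 to 0.987) in males and 0.996 (0.901 to 1.10) in females.

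With the sexes combined, the Eag, Erg and Elk pores lay close to the controls. Within males, log2 ratios of the genes tested ran from -0.33 to 0.28, and 1 counting interval, 1.02 to 1.53, excluded 1. Kcnh3 was at 6.90 and 8.55 FPKM in the control male and female libraries and at 6.65 and 7.51 FPKM in the BPA male and female libraries. Kcnh2, the Erg pore known from the heart's repolarization, was at 5.91 and 6.22 FPKM in the control libraries and at 4.90 and 6.57 FPKM in the BPA libraries. For both genes the groups overlap. The 7 genes tested had log2 ratios between -0.19 and 0.14 and limma adjusted p of at least 0.572.

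Silent Kv subunits form no channel of their own and modify Kv2 pores. Kcng1 was at 9.08 and 9.92 FPKM in the control male and female libraries and at 10.2 and 10.6 FPKM in the BPA male and female libraries, and Kcnv1 at 8.41 and 8.64 FPKM in the control and 6.78 and 8.06 FPKM in the BPA libraries. Their log2 ratios were 0.125 and -0.19, and the lowest limma adjusted p of the 6 genes tested was 0.455.

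Auxiliary Kv subunits included a gene past a 2-fold difference. Kcnip3 (Gene ID 65199), a calcium sensor that binds Kv4 pores and also represses transcription, was at 6.98 FPKM in the control male and 3.01 FPKM in the BPA male library, and at 3.54 and 4.10 FPKM in the control and BPA female libraries. The control male library stood above the other 3. The ratio was 0.432 (0.246 to 0.733) in males and 1.16 (0.648 to 2.09) in females, and limma gave -0.45 ± 0.31 (SE, adjusted p = 0.489), which became -0.01 without the control male library. Its relatives Kcnip1 and Kcnip2, the most abundant of the family, were between 16.7 and 24.0 FPKM in all libraries and had log2 ratios of -0.09 and -0.02.

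The small single-span subunits Kcne2 and Kcne5 and the assembly suppressor Kcnrg showed larger ratios on few fragments. Kcne5 was at 5.44 and 5.62 FPKM in the control male and female libraries and at 8.60 and 6.38 FPKM in the BPA male and female libraries, a log2 ratio of 0.39 (limma adjusted p = 0.291). Kcne2 was at 0.96 and 1.20 FPKM in the control libraries and at 1.68 and 1.56 FPKM in the BPA libraries, a log2 ratio of 0.43 (adjusted p = 0.455) from 15 to 26 fragments a library. Kcnrg was at 2.45 and 2.84 FPKM in the control libraries and at 1.84 and 1.65 FPKM in the BPA libraries, a log2 ratio of -0.485 (adjusted p = 0.307) from 11 to 19 fragments. The groups did not overlap for any of these 3 genes, and the counting intervals included 1 in both sexes for all of them. Kcne2 is also known from the choroid plexus, whose 8 other markers found were at or below 1.67 FPKM in every library, with a summed level of the whole list between 3.32 and 5.0 FPKM.

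**Figure D3:**
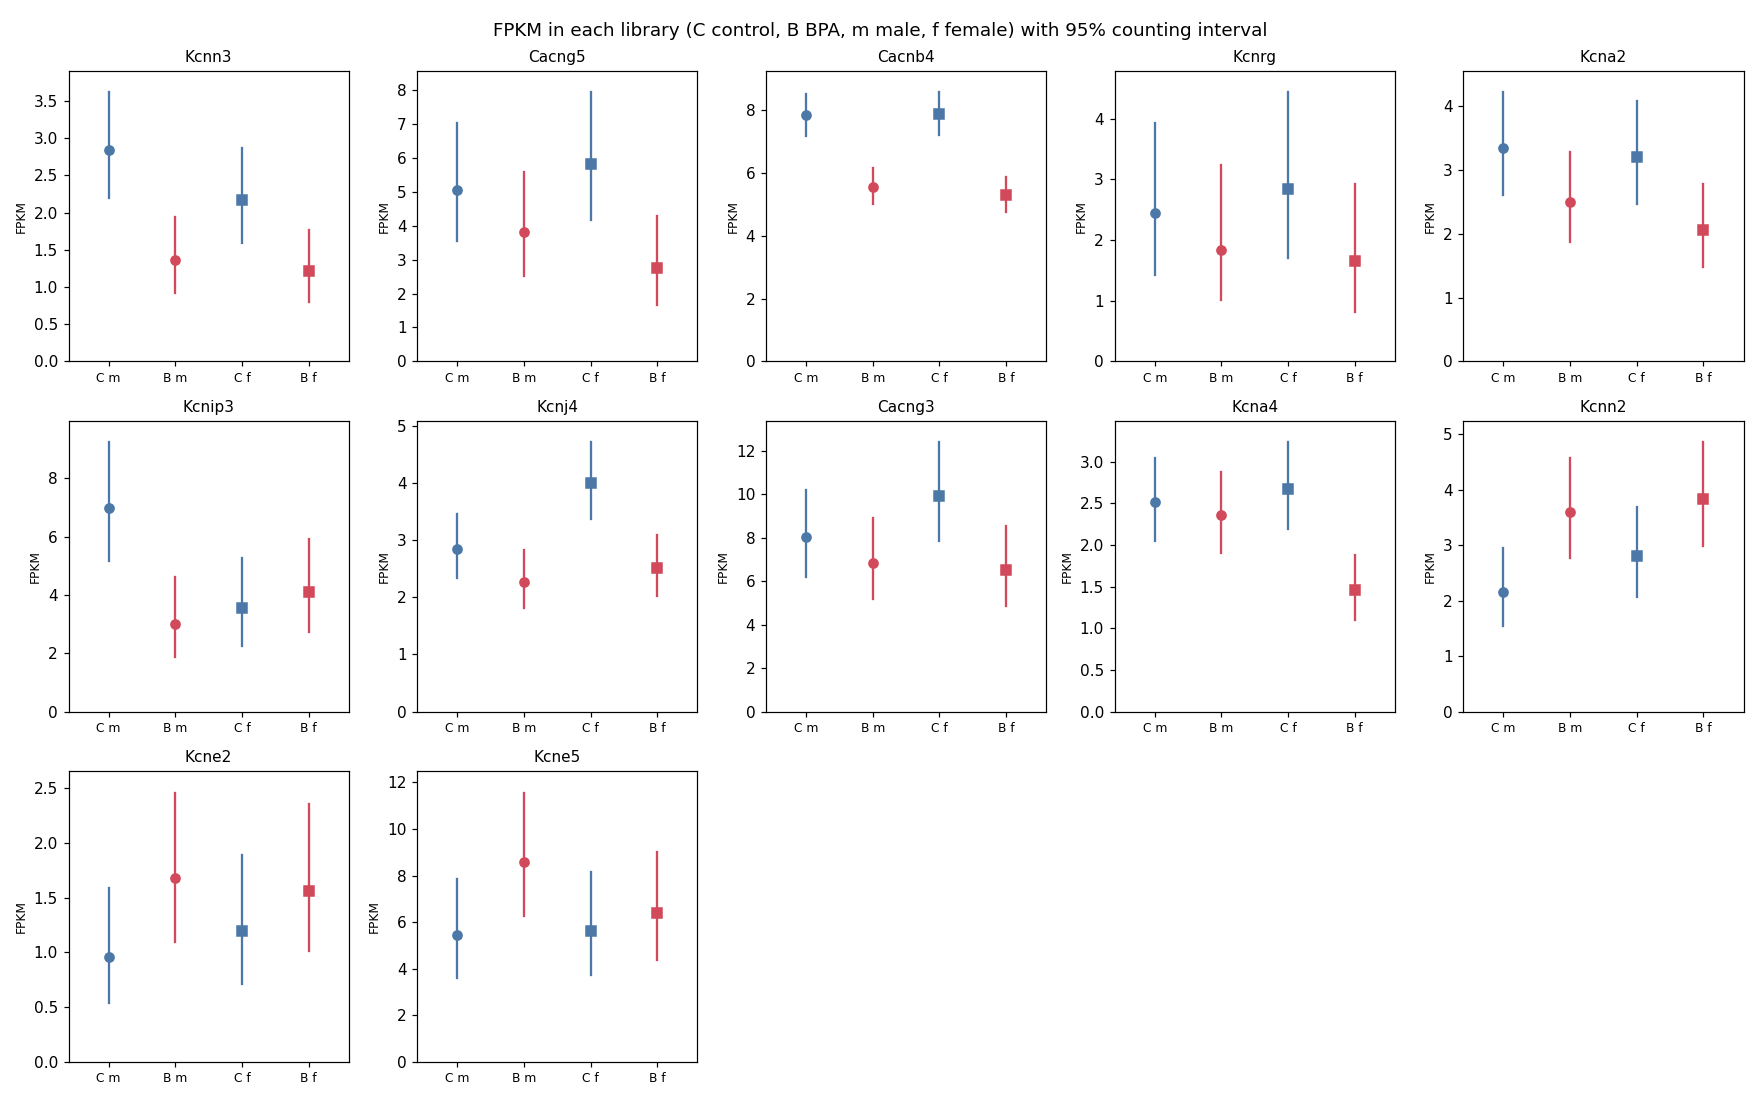
FPKM of 11 of the 12 channel genes with the largest mean log2 ratio of the same sign in both sexes, and of Kcnip3, in each library (C control, B BPA, m male, f female), with the 95% counting interval as a vertical line. For Cacnb4 and Kcnn3 both BPA points lie below both control points, while for Kcnip3 the control male point stands apart from the other 3.

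Among the potassium channels opened by calcium or sodium, the largest differences were those of 2 SK channels, which follow each spike with a slow hyperpolarization, and they lay on opposite sides. Kcnn3 (Gene ID 54263) was at 2.84 and 2.17 FPKM in the control male and female libraries and at 1.37 and 1.21 FPKM in the BPA male and female libraries. Kcnn2 (Gene ID 54262) was at 2.16 and 2.80 FPKM in the control libraries and at 3.59 and 3.84 FPKM in the BPA libraries. In neither gene did the groups overlap. Kcnn3 had ratios of 0.480 (0.303 to 0.748) in males and 0.559 (0.336 to 0.915) in females and a log2 ratio of -0.74 ± 0.25 (SE, limma adjusted p = 0.218). Kcnn2 had ratios of 1.66 (1.11 to 2.53) and 1.37 (0.940 to 2.02) and a log2 ratio of 0.51 ± 0.19 (SE, limma adjusted p = 0.260).

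The most abundant SK gene, Kcnn1, was at 10.9 and 13.9 FPKM in the control male and female libraries and at 11.4 and 12.3 FPKM in the BPA male and female libraries. Kcnma1, the BK pore, stayed between 10.3 and 11.1 FPKM, and its neuronal partner Kcnmb4 between 43.1 and 49.8 FPKM. For these 3 genes the groups overlap, and their log2 ratios were between -0.06 and 0.10. Kcnt2, a sodium-activated pore, was at 1.79, 1.96 and 1.97 FPKM in the control male, control female and BPA female libraries and at 2.75 FPKM in the BPA male library.

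Inward rectifiers, which hold the cell near rest, included the G protein-gated pores Kcnj3 and Kcnj6. Kcnj6 was at 5.69 and 6.21 FPKM in the control male and female libraries and at 4.46 and 4.86 FPKM in the BPA male and female libraries, ratios of 0.784 (0.690 to 0.890) and 0.782 (0.691 to 0.885) and a log2 ratio of -0.32 ± 0.13 (SE, limma adjusted p = 0.292). Kcnj3, its partner in the channel, was at 7.59 and 6.96 FPKM in the control libraries and at 5.30 and 7.43 FPKM in the BPA libraries, so the BPA male library alone lay below the controls. Kcnj4 was at 2.85 and 4.0 FPKM in the control libraries and at 2.26 and 2.52 FPKM in the BPA libraries, a log2 ratio of -0.43 (adjusted p = 0.362). The glial pore Kcnj10 was between 2.66 and 3.72 FPKM with a log2 ratio of -0.04, beside an astrocyte list of 11 genes of which 9 lay lower in both sexes.

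The 2-pore-domain leak channels were led by the related mechanosensitive pores Kcnk2 and Kcnk10. Kcnk2 was at 13.7 and 13.5 FPKM in the control male and female libraries and at 14.2 and 13.8 FPKM in the BPA male and female libraries, a log2 ratio of 0.05. Kcnk10 (Gene ID 65272) was at 10.3 FPKM in each control library and at 8.48 and 8.14 FPKM in the BPA libraries, ratios of 0.827 (0.693 to 0.987) and 0.790 (0.659 to 0.946) and a log2 ratio of -0.29 ± 0.10 (SE, limma adjusted p = 0.217). Kcnk10 thus separated by treatment by more than the gap between its controls. The acid-sensitive pore Kcnk3 was at 3.06 and 3.42 FPKM in the control libraries and at 4.16 and 3.72 FPKM in the BPA libraries, a log2 ratio of 0.25.

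HCN channels, which open on hyperpolarization and pass a mixed sodium and potassium current, went different ways. Hcn3 (Gene ID 114245) was at 14.4 and 15.3 FPKM in the control male and female libraries and at 11.7 and 12.2 FPKM in the BPA male and female libraries, ratios of 0.816 (0.706 to 0.942) and 0.795 (0.688 to 0.917). Its log2 ratio was -0.30 ± 0.09 (SE, limma adjusted p = 0.186). Hcn2 was at 14.9 and 16.1 FPKM in the control libraries and at 12.9 and 13.6 FPKM in the BPA libraries, a log2 ratio of -0.215 (adjusted p = 0.289), and the levels of Hcn2 and Hcn3 overlapped over the libraries. Hcn4 lay higher, at 8.80 and 9.04 FPKM in the control libraries and 9.59 and 10.9 FPKM in the BPA libraries, with a log2 ratio of 0.185.

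Pores and auxiliary subunits are compared in the next values. Of 56 genes in pore-forming families, 30 (53.6%) were lower in both sexes and 7 (12.5%) higher in both. Of 32 genes in auxiliary families, which here include the silent Kv subunits and the TARPs, 14 (43.8%) were lower and 8 higher. Among tested transcripts with a Gene ID, 41.7% were lower and 26.1% higher. By size the order was reversed, with a median log2 ratio of -0.113 for the pore-forming and -0.134 for the auxiliary families. In each group 4 genes had an unadjusted p under 0.05 in limma's test. The difference between the groups was not tested. The 8 genes of the calcium- and sodium-activated family, which holds both kinds of subunit, are in neither count, and 2 of them were lower and 2 higher in both sexes. With the sexes combined, all 16 family medians lay below 0, the lowest being -0.24 for sodium channel beta subunits and -0.22 for the gamma family. With size factors, the median of the calcium- and sodium-activated channels became 0.005 and the other 15 stayed below 0. Without the BPA male library, 3 family medians lay above 0, those of the 2-pore-domain channels (0.03), the Eag, Erg and Elk pores (0.04) and the T-type pores (0.02). Leaving out another library turned further medians, such as that of the silent Kv subunits without the BPA female library. Within males the medians of the silent Kv subunits (0.113), the auxiliary Kv subunits (0.07) and the calcium- and sodium-activated channels (0.069) lay above 0. Within females those of the Kv7 pores (0.018) and the Eag, Erg and Elk pores (0.024) did.

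In males, 2 channel genes differed by at least 2-fold, both lower and among them Kcnip3, and none was higher. Over the 10632 transcripts with a Gene ID, 0.95% were lower and 0.235% higher by this measure. In females 0 channel genes passed in either direction, against 1.99% lower and 0.0941% higher. With 1 library a group these counts compare libraries, not conditions. No channel gene had counting intervals that excluded 1 on opposite sides in the sexes, while 100 of the 10632 transcripts (0.941%) had. Over the 96 genes, the log2 ratios of males and females correlated at 0.32 (Pearson) and 0.31 (Spearman), against 0.51 and 0.47 over transcripts with a Gene ID. These correlations run across genes measured in the same libraries and are a description.

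**Figure D4:**
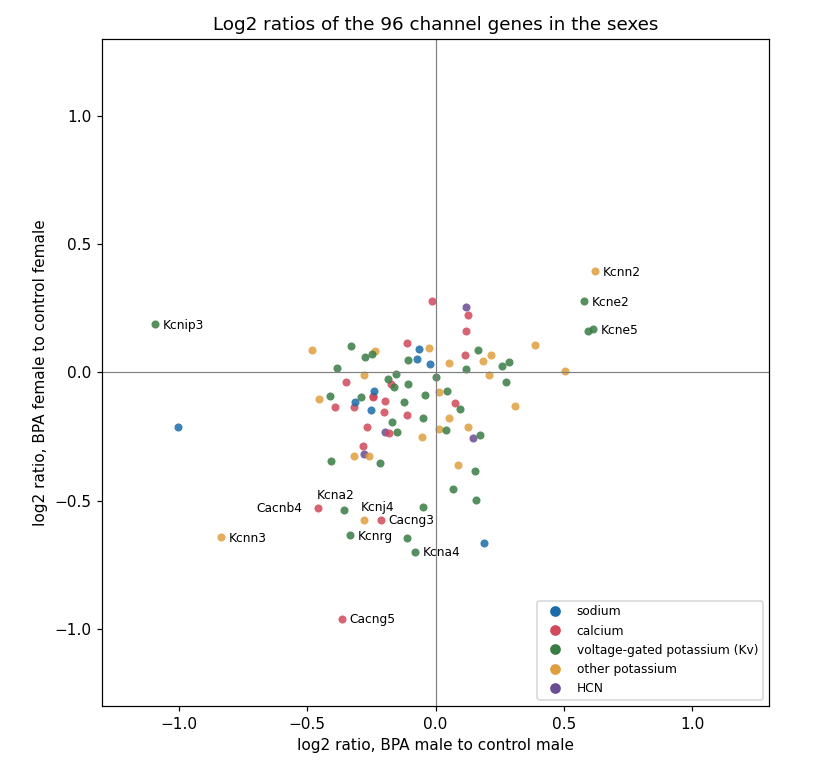
Log2 ratio of BPA to control in males (x axis) against that in females (y axis) for the 96 channel genes tested, 1 point a gene, with the genes of the largest ratios named. Kcnn3, Cacnb4 and Cacng5 lie low in both sexes and Kcnn2 high in both, while Kcnip3 lies past -1 in males, with a female log2 ratio of 0.19.

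Partners of these channels that the symbols do not catch, such as anchors, trafficking proteins and scaffolds, did not pass the test either. Of 58 listed genes 51 were found and 47 tested, 0 passed limma's test (lowest adjusted p 0.0939), and at an unadjusted p under 0.05 2 were higher and 7 lower, where 5.3% and 12% of all transcripts tested were. Lin7b, a scaffold protein of synapses, was at 7.57 and 8.25 FPKM in the control male and female libraries and at 5.02 and 4.90 FPKM in the BPA male and female libraries. Pex5l, which brings HCN channels to dendrites, was at 5.35 and 6.29 FPKM in the control libraries and at 3.24 and 3.92 FPKM in the BPA libraries. Fgf14, a cytoplasmic partner of sodium channels, was at 8.69 and 6.37 FPKM in the control and at 4.45 and 4.54 FPKM in the BPA libraries. For these 3 genes both BPA libraries lay below both controls, as they did for 33.4% of all transcripts with a Gene ID. Their log2 ratios, among the lowest of the list, were -0.62, -0.63 and -0.67, with limma adjusted p of 0.0939, 0.156 and 0.1498. The 2 genes higher at an unadjusted p under 0.05 were Rimbp2 and Dlg2. Their log2 ratios were 0.23 and 0.15 (limma adjusted p = 0.255 and 0.2647). The median log2 ratio of the list was -0.03, above that of the channel genes.

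The 33 channel genes that were not tested were scarce. Of these, 26 were listed in all 4 libraries below a mean of 1 FPKM, with at most 53 fragments in a library, and both BPA libraries lay below both controls for 12 of them (46.2%) and above for 2 (7.69%), against 28.5% and 9.25% of the 2401 transcripts with a Gene ID that were as scarce. None of the 26 had counting intervals that excluded 1 in both sexes. The other 7 were listed in 1 sex only, Cacna1f, Kcnk18 and Scn10a in males and Cacna2d4, Kcnj1, Kcnj14 and Kcnmb1 in females, with at most 5 fragments in a library. Kcnj13, an inward rectifier of epithelia chosen here after its values were seen, missed the minimum with a mean of 0.96 FPKM. It was at 1.25 and 1.67 FPKM in the control male and female libraries and at 0.45 and 0.46 FPKM in the BPA male and female libraries, from 5 to 18 fragments. Its ratio was 0.360 (0.101 to 1.06) in males and 0.276 (0.0800 to 0.772) in females. Kcnj13 is known from choroid plexus, whose other markers found did not move together. Folr1 was at or below 0.09 FPKM in every library. Aqp1 was at 0.80 and 1.18 FPKM in the control male and female libraries and at 0.72 and 0.35 FPKM in the BPA libraries. Kcne2 lay higher with BPA in both sexes, and the part of choroid plexus in the Kcnj13 values was not tested.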

How the data were processed

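RNA-seq of neonatal rat frontal cortex was analyzed as 1 library per sex and treatment. According to their methods, the authors selected polyadenylated RNA, sequenced it on an Illumina HiSeq instrument, mapped it to Rnor_6.0 (rn6) with Bowtie 2 and quantified it with RSEM (the submitters' processing notes also name HISAT). The deposited values are FPKM, scaled by the authors to transcript length and library depth, with 2 decimals, and 0.01 stands for 0. Versions are not given in the sources used here. Depth was recovered from the steps between low FPKM values (effective length is length minus 60 bases), where 83.0 to 84.7% of 668 to 761 scarce transcripts per library came within 0.1 of whole fragments.

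Log2 ratios were taken on log2(FPKM + 0.5), which understates the change of scarce genes. limma 3.58.1 (R 4.3.3) was fitted on all 13163 transcripts listed in every library with a mean of at least 1 FPKM, with treatment as the single term, a prior variance that follows the mean (2 residual degrees of freedom), two-sided, and Benjamini-Hochberg adjustment over all of them. Within a sex, ratios have exact (Clopper-Pearson) 95% counting intervals and no test. Genes were named where called, where among the 2 most abundant of a family, among the 12 largest mean log2 ratios of the same sign in both sexes, or past 2-fold; others are described by family, and Kcnj13 and genes given for contrast were chosen after their values were seen. Some genes of the group are counted and plotted but not reported here by name. Members and gene lists were chosen with earlier results of these data known. Promoters and gene order are from RefSeq (GRCr8). Python 3.11.15, numpy 2.4.6, pandas 2.3.3, scipy 1.17.1 and matplotlib 3.10.9 were used.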

Additional observations from a re-analysis of the deposited data

How the results depend on the processing

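The count of channel genes that passed limma's test was 0 in both directions with every alternative: pseudocounts of 0.1 and 1, no minimum or a minimum of 5 FPKM, transcripts with a Gene ID only, size factors, quantile normalization, sex as a second term, no trend, FPKM summed per symbol and each library left out. The lowest adjusted p of a channel gene was 0.0558 (Cacnb4) when only transcripts with a Gene ID were fitted, where 477 of 10632 transcripts passed against 74 of 13163, and 0.0722 with size factors as well, a setting added after seeing the data. Over all transcripts, 0 passed without a minimum and 0 without the trend (2628 and 2053 at an unadjusted p under 0.05), 164 with a minimum of 5 FPKM, 26 after quantile normalization and between 0 and 6 with a library left out. At an unadjusted p under 0.05, 10 channel genes passed (10.4%, against 17.3% of all transcripts), 15 with sex as a second term (15.6% against 19.5%) and 16 with Gene IDs only (16.7% against 21.1%). The median log2 ratio of the channel genes, -0.11, became -0.13 with a pseudocount of 0.1, -0.10 with 1, -0.10 with a minimum of 5 FPKM, -0.071 with size factors, -0.022 after quantile normalization and -0.070 with Gene IDs only and size factors, and lay between -0.14 and -0.05 with a library left out, the last without the BPA male library. The count past 2-fold in males, 2, became 0 with a pseudocount of 1 or a minimum of 5 FPKM and 1 with size factors, and the count in females, 0, became 1 with a pseudocount of 0.1 and 2 with no minimum. With a minimum of 5 FPKM, 8 channel genes lay above and 22 below both controls, since fewer genes were kept. The log2 ratio of 14 genes among the 2 most abundant of their family changed sign when a library was left out, over ranges given here as lowest to highest: Cacna1e (-0.308 to 0.031), Cacna1g (-0.412 to 0.022), Cacna1h (-0.014 to 0.278), Cacnb1 (-0.112 to 0.117), Kcnd3 (-0.160 to 0.009), Kcnh2 (-0.281 to 0.107), Kcnh3 (-0.258 to 0.032), Kcnip1 (-0.257 to 0.072), Kcnip2 (-0.115 to 0.066), Kcnj3 (-0.422 to 0.030), Kcnn1 (-0.231 to 0.105), Scn2b (-0.538 to 0.060), Scn3a (-0.066 to 0.089) and Scn3b (-0.054 to 0.032). With size factors Kcnip2 became 0.028 and Scn3b 0.042 (0.030 and 0.044 with Gene IDs only as well), and after quantile normalization Kcnip2 became 0.007 and Kcnh2 0.016. None of the 12 genes plotted by library changed sign. No paired analysis by replicate was possible because there was 1 library per sex and treatment, and the fit with sex as a second term stands in its place. Ratios of genes with few fragments have wide counting intervals, such as 0.344 to 1.68 for Kcnrg in males from 17 and 13 fragments.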

Other observations

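Several channel genes lie next to each other in RefSeq's gene order (assembly GRCr8) and differed widely in level. Kcnip1 had a control mean of 20.1 FPKM, and its neighbour Kcnmb1 was listed at 0 in the control female library. Scn2b and Scn4b were at means of 5.01 and 0.43 FPKM, and Cacng6, beside Cacng8 and Cacng7 at 20.3 and 55.9 FPKM, was at a mean of 0.075 FPKM. Kcnj9 and Kcnj10 were alike, at means of 3.96 and 3.27 FPKM.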
